A study of Drosophila melanogaster with 12 samples.

Results

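Whole Drosophila melanogaster embryos carrying a form of the SoxB transcription factor Dichaete labelled HMG- were compared with embryos carrying GFP on 4 two-colour microarrays, chosen by their titles, out of 12 arrays in the series. In both channels the driver was simGal4, which directs the construct or GFP to midline cells of the ventral nervous system. Females with simGal4 were crossed to males with the UAS construct, and embryos of stage 8 to 9 were taken 3.5 to 4.5 h after laying at 25 °C. The other 8 arrays set EnRep (4 arrays) and wild-type Dichaete (labelled DichaeteWT, 4 arrays) against the same kind of GFP control, with the same driver and stage, and here they lend their spread to the test and serve as a comparison. HMG- is written HMG-minus below. The series' design text calls the constructs dominant negative as a class, and the labels do not describe the HMG- construct further. The 4 arrays are labelled as independent biological replicates, with the HMG-minus RNA in Cy3 on arrays 1 and 2 and in Cy5 on arrays 3 and 4. Whether GFP collections were shared between arrays is not given in the sources used here.

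Dichaete belongs to the SoxB group of transcription factors, which bind DNA through an HMG domain and bend it. In the fly embryo it is expressed in segmentation, in the neuroectoderm and in the midline, where it acts with the POU protein Ventral veins lacking and the bHLH-PAS protein Single-minded, and the guidance cue slit is among its known targets there. The neural gene SoxNeuro is its close relative and overlaps with it in neuroblast formation. A Sox protein that cannot bind DNA may still bind partner proteins, which is why such forms are used as dominant negatives.

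RNA came from whole embryos, in which midline cells are a small part, so fewer cells of a type and less RNA per cell cannot be told apart. Each value below is the log2 ratio of HMG-minus over GFP for a probe after background correction and normalization. A positive value means more signal with HMG-minus, and 1 log2 unit is a doubling. A probe is said to be called, to have risen or to have fallen when its mean over the 4 arrays differed from 0 at a Benjamini-Hochberg adjusted p below 0.05 over all 14485 probes, in a limma fit of all 12 arrays with a dye term. An array's spot counts as accepted where the spot finder passed it. Accepted spots made up 86.9% to 98.4% of the Cy3 channel and 74.6% to 92.6% of the Cy5 channel on the 4 arrays, and array 2 was the lowest in Cy5. Spots of sli, comm, D, SoxN, ac, l(1)sc, twi, sna, srp and vas were each accepted in both channels on 4 of 4 arrays. So were 60.6% of all probes, among them that of the later cuticle gene Cpr65Ea. Acceptance thus shows that a spot was measured and does not check the labelled stage. No value is given here for sim, the gene whose enhancer gives the driver its name.

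Of 14485 probes, 124 were called, which is 0.856% of those tested. Of these, 61 rose (0.421%) and 63 fell (0.435%), and 45 and 48 genes respectively carried a symbol of their own. Counts of called list and family members below are to be read beside these shares. Changes were small: the median called size was 0.54 log2, and 11 probes moved by more than 1 log2 unit, 4 upwards and 7 downwards. The same sign on all 4 arrays was seen for 117 of the 124, a share that the call itself favours. Leaving out array 1, 2, 3 or 4 reduced the number of calls to 43, 48, 25 or 17, and 16 probes stayed called whichever of the 12 arrays was left out. Those 16 included the falls of EAChm, Cyp4p2, HnRNP-K (both of its probes), CG13794, CG15345, CG15236, CG13991, CG14453 and CG17478, and among named genes a single rise, CG14897. In all, 12 of the 16 were falls and 4 were rises, and every other call was lost without at least 1 of the HMG-minus arrays. Leaving out EnRep array 4 raised the count to 238 and leaving out DichaeteWT array 3 raised it to 191, since all 12 arrays share the estimate of the spread. With the replicate number as a block in place of the dye term 62 probes were called. A trended and robust variance left 9 calls, and it ended those of EAChm, Cyp4p2, both HnRNP-K probes and CG13991, with adjusted p of 0.12 to 0.228. Under that setting stai, CCDC53, CG14736, cindr, Obp57a and Tbcc stayed called, with adjusted p of 0.0416 to 0.0462.

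**Figure D1:**
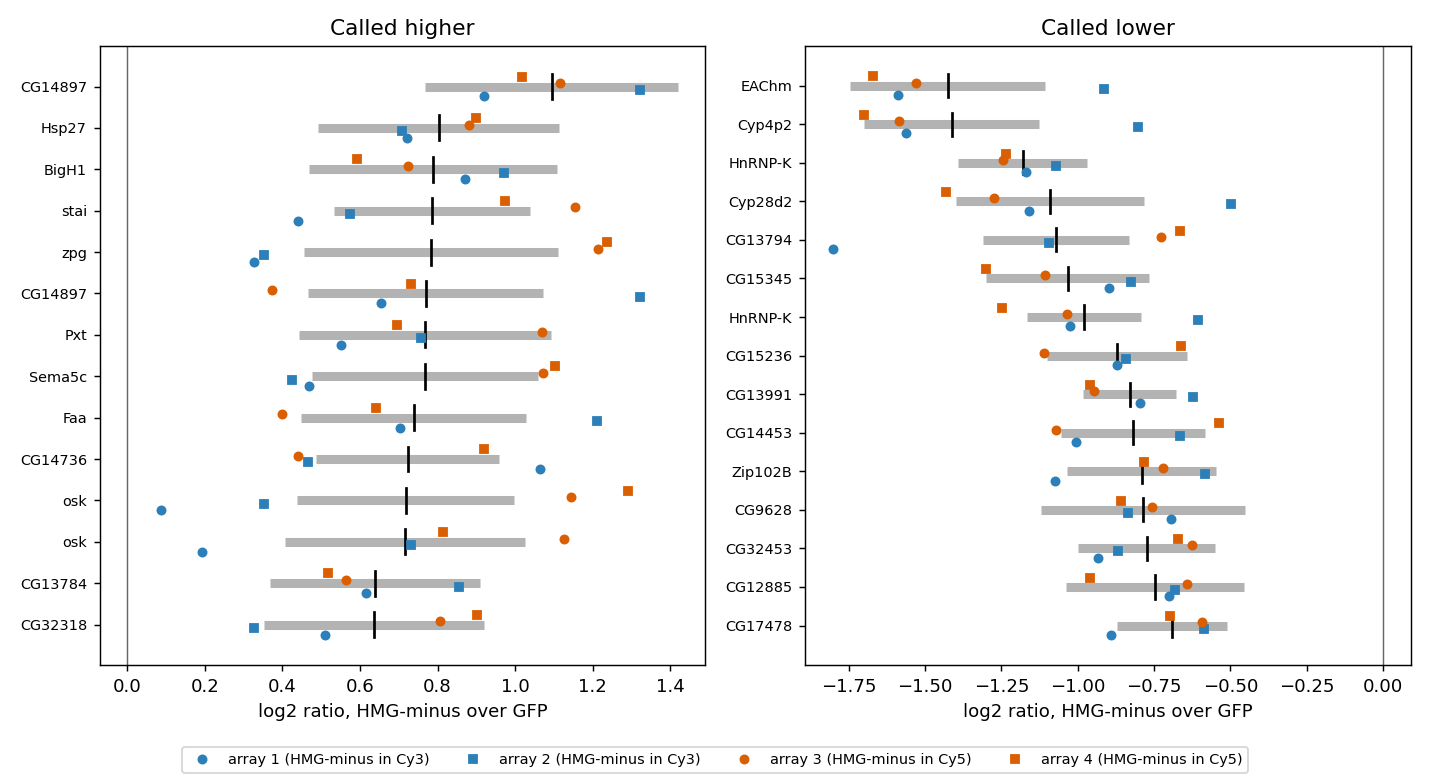
Log2 ratio of HMG-minus over GFP (x axis) for 14 of the 15 named probes with the largest rise and the 15 with the largest fall among those called with the same sign on 4 arrays. Points are single arrays coloured by the dye of HMG-minus, black ticks are means and grey bars are 95% confidence intervals of the limma fit; osk lies at 0.09 on array 1 and 1.29 on array 4, whereas the upper HnRNP-K row spans only -1.25 to -1.07.

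The 4 arrays split by dye. Over all probes the log2 ratios correlated at 0.34 between arrays 1 and 2 and at 0.68 between arrays 3 and 4, and between -0.07 and -0.01 for a pair of opposite orientation. These values describe the arrays, as probes are not replicates. Of the 124 called probes, 122 had the same sign in both orientation means, which the call again favours. For 25 of them the gap between the 2 orientations exceeded the mean change, and for 68 every array lay at least 0.3 log2 units from 0 in the called direction.

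**Figure D2:**
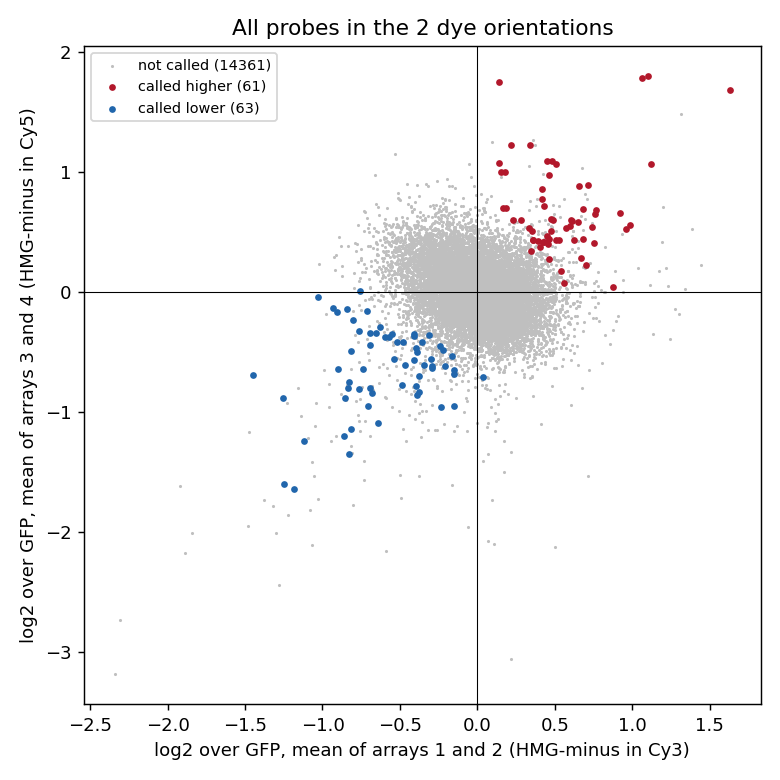
Mean log2 ratio of HMG-minus over GFP of every probe on arrays 1 and 2 (x axis, HMG-minus in Cy3) against arrays 3 and 4 (y axis, HMG-minus in Cy5). Called probes (61 red, 63 blue) lie almost all above 0 on both axes or below 0 on both, while the grey cloud of uncalled probes slopes the other way.

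Dichaete itself was not called. The probe for D gave 0.58, 0.71, -0.28 and -0.24 on arrays 1 to 4, with a fitted mean of 0.19 ± 0.08 (SE, n = 4 arrays) and an adjusted p of 0.317. Both arrays with HMG-minus in Cy3 were above 0 and both with it in Cy5 were below 0, so the sign followed the dye. The probe cannot separate the endogenous transcript from the transgene, and whether it lies in a stretch that the construct carries is not given in the sources used here. It thus neither checks the labels nor measures the construct.

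The genes that Dichaete is known to act on in the midline and neuroectoderm did not pass the test. Of 13 measured genes in a literature list of its targets and partners, 0 were called, 7 lay above 0 and 6 below, and their median was 0.04 log2, where the median of all probes was -0.00 and 49.3% lay above 0. The midline cue sli gave -0.09, -0.23, 0.53 and 0.35, a mean of 0.14 (adjusted p = 0.538), again low in the Cy3 orientation and high in the Cy5 orientation. The sorting receptor gene comm, which keeps Robo off the surface of crossing axons, had a mean of -0.21 (adjusted p = 0.446). The POU gene vvl had a mean of 0.18 (adjusted p = 0.688), SoxN -0.12 (adjusted p = 0.788), the proneural genes ac and l(1)sc -0.06 and 0.05 (adjusted p = 0.886 and 0.879), and en -0.21 (adjusted p = 0.424). The pair-rule gene eve had the smallest p in the list, at 0.17, 0.45, 0.55 and 0.27 with a mean of 0.36 (adjusted p = 0.0624), above 0 on every array but short of the threshold.

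Nor were genes of the midline cells called. All 13 measured genes of the midline primordium and midline glia stayed below the threshold, 9 of them below 0, with a median of -0.11. Midline neuron genes, also 13, had a median of -0.01, with 8 below 0. Proneural and neuroblast genes (20 measured) had a median of -0.01, and the neuroblast scaffold gene mira, at -0.40, missed the threshold (adjusted p = 0.183). SoxB and neuroectoderm column genes (9), axon guidance genes (12) and Notch pathway genes (16) likewise held no call, with medians of 0.05, 0.07 and 0.00. The median SE over all probes was 0.10 log2, and the smallest change called on any probe was 0.31, so changes below that size in whole-embryo RNA were not detected.

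In the lists of egg, germ line and histone genes, 3 genes rose with HMG-minus. These were osk, which organises the pole plasm that makes germ cells, zpg, which encodes the gap-junction innexin of the germ line, and BigH1, the linker histone of the early embryo and the germ line. One osk probe gave 0.09, 0.35, 1.14 and 1.29, a mean of 0.72 ± 0.13 or 1.65-fold (adjusted p = 0.0236). A second osk probe gave 0.19, 0.73, 1.13 and 0.81, with the same mean (adjusted p = 0.0386), so both probes were above 0 on each array and higher in the Cy5 orientation. zpg read 0.33, 0.35, 1.21 and 1.24, a mean of 0.78 ± 0.15 (adjusted p = 0.0333). BigH1 read 0.87, 0.97, 0.72 and 0.59, a mean of 0.79 ± 0.15 or 1.73-fold (adjusted p = 0.028), above 0 in both orientations. With the other constructs the sign of BigH1 followed the dye. Arrays 1 to 4 read 0.99, 0.76, -0.62 and -0.62 with EnRep, and 0.86, 0.49, -0.45 and -0.55 with DichaeteWT. HMG-minus thus stood apart from them mainly in the Cy5 orientation.

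As groups, the germ cell and pole plasm list had 10 of 12 measured genes above 0, 2 called higher (osk and zpg, against 0.421% of all probes) and a median of 0.19. The list of maternal transcripts that the embryo clears early, which shares osk with it, had 11 of 11 genes above 0, 1 called, and a median of 0.29, and its medians on arrays 1 to 4 were 0.25, 0.26, 0.16 and 0.26. Members that did not pass include swa at 0.81 (adjusted p = 0.134), which helps place bicoid mRNA, smg at 0.70 (adjusted p = 0.175), a repressor that destabilises maternal mRNAs, and twe at 0.45 (adjusted p = 0.107), a Cdc25 phosphatase. Replication-dependent histones with the linker histone had 8 of 8 genes above 0 and 1 called, BigH1, with a median of 0.21, although array 1 alone had a median of -0.28. On the EnRep arrays the median of that histone list ran from 0.40 to 1.16 and on the DichaeteWT arrays from 0.13 to 0.60, so both groups overlapped the HMG-minus arrays. The later cuticle list, whose genes are expressed mostly after stage 9, moved the other way, with 16 of 17 measured genes below 0. Its medians lay between -0.55 and -0.30 on the 4 HMG-minus arrays. On arrays 1 to 4 they were -0.53, -0.55, -0.32 and 0.90 with EnRep, and 0.10, 0.30, -0.55 and -0.24 with DichaeteWT. The fall was thus also seen on some arrays of both other constructs. Whether the HMG-minus and GFP collections differed in age was not tested.

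Another 2 rises are given here, AGO3 having been chosen after its values were seen. Pxt, a cyclooxygenase-like peroxidase of egg development, rose by a mean of 0.77 (0.55, 0.76, 1.07 and 0.70 on the arrays, adjusted p = 0.0349). AGO3, a PIWI-clade Argonaute that loads piRNAs, rose by 0.39 (0.28, 0.44, 0.38 and 0.48, adjusted p = 0.0495), and of 19 measured piRNA pathway genes it was the single call, with 12 above 0. None of these calls held without array 2, 3 or 4: the adjusted p was then 0.0813 to 0.203 and 0.15 to 0.274 for the osk probes, 0.0536 to 0.259 for zpg, 0.0536 to 0.236 for BigH1, 0.114 to 0.256 for Pxt and 0.17 to 0.31 for AGO3. With the replicate block the calls were also lost, at adjusted p of 0.0659 and 0.0942 for the osk probes, 0.0765 for zpg, 0.0698 for BigH1, 0.079 for Pxt and 0.113 for AGO3. Their means stayed above 0 under every setting tried, although many of the settings leave the fitted mean unchanged by design.

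In the list of microtubule proteins stai rose, and the tubulin cofactors beside it were chosen after their values were seen. stai encodes stathmin, which binds tubulin dimers, and read 0.44, 0.57, 1.15 and 0.97, a mean of 0.79 ± 0.12 (adjusted p = 0.00862). Tbcb, a tubulin-folding cofactor, read 0.74, 0.49, 0.63 and 0.54, a mean of 0.60 (adjusted p = 0.0195), with all arrays close together. Tbcc, another cofactor, read 0.12, 0.18, 0.88 and 1.11, a mean of 0.57 (adjusted p = 0.00613), but its GFP spot was accepted on 1 of 4 arrays and its second probe gave 0.22. Of 5 measured tubulin cofactors 4 lay above 0 and 2 were called, while the list had 1 call (stai) among 12 and a median of 0.06. Over all probes 0.421% were called higher. Without array 4 the adjusted p became 0.0968 for stai, 0.167 for Tbcb and 0.0825 for Tbcc, and without array 3 it was 0.0868 for stai and 0.183 for Tbcb, which was also lost without array 1 (0.0604).

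Gar1, a protein of the H/ACA snoRNPs that guide pseudouridylation, rose by 0.53 (adjusted p = 0.0119), and Trf4-2, a noncanonical poly(A) polymerase, by 0.62 (adjusted p = 0.0495). Both gave between 0.33 and 0.79 on every array, and Trf4-2 was not called with the replicate block (adjusted p = 0.102). In wild-type Dichaete embryos the mean of Gar1 over GFP was 0.51, and the difference of HMG-minus from it had a 95% interval of -0.23 to 0.27.

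The small heat shock gene Hsp27, whose protein holds unfolded proteins in solution and which is also expressed in the germ line, had the largest rise among genes with a symbol after CG14897. It read 0.72, 0.71, 0.88 and 0.90, a mean of 0.80 ± 0.14 or 1.74-fold (adjusted p = 0.0236), and the arrays differed little. It was the single call among 10 measured heat shock and chaperone genes, 6 of which lay above 0, and Hsp70Ba stood at -0.47 (adjusted p = 0.315). Without array 4 the adjusted p of Hsp27 was 0.196, and without array 1, 2 or 3 it was 0.0536 to 0.189. The semaphorin gene Sema5c read 0.47, 0.42, 1.07 and 1.10 (mean 0.77, adjusted p = 0.0219). Faa, which encodes the last enzyme of tyrosine breakdown, read 0.70, 1.21, 0.40 and 0.64 (mean 0.74, adjusted p = 0.0236). With the replicate block the adjusted p was 0.0628 for Hsp27, 0.0532 for Sema5c and 0.0515 for Faa.

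Further rises were single genes of varied roles. The complex I subunit gene ND-PDSW rose by 0.60 (adjusted p = 0.0221), as the single call among 24 measured oxidative phosphorylation genes. Top1, which relaxes supercoiled DNA, rose by 0.56 (adjusted p = 0.00934), CCDC53, a subunit of the actin-regulating WASH complex, by 0.60 (adjusted p = 0.00751), and the lipophorin receptor gene LpR2 by 0.55 (adjusted p = 0.0284). The proton pump subunit gene Vha16-1 rose by 0.44, the cGMP-dependent kinase gene for by 0.39 and the Mediator subunit gene MED6 by 0.43. With the replicate block ND-PDSW, LpR2 and MED6 were not called (adjusted p = 0.0507, 0.0734 and 0.0698). One probe of CG14897 had the largest rise of any probe with a gene symbol, at 0.92, 1.32, 1.12 and 1.02 (mean 1.09 ± 0.15 or 2.13-fold, adjusted p = 0.00548). Its other probe also rose, at 0.65, 1.32, 0.37 and 0.73 (mean 0.77, adjusted p = 0.0236). Both probes lay above 0 on every array of the series. Their means were 0.79 and 0.60 with DichaeteWT and 0.89 and 0.82 with EnRep, so embryos of all 3 constructs shared the rise. Another 3 probes, with no symbol, rose more than CG14897 with HMG-minus, by means of 1.65, 1.45 and 1.42.

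Of the falls that held without any single array, those of EAChm, Cyp4p2 and HnRNP-K were the largest on named genes, although none of them was called with a trended and robust variance. HnRNP-K, which encodes the RNA-binding protein Bancal, gave -1.17, -1.07, -1.25 and -1.23 on one probe (mean -1.18 ± 0.10, 0.441 of the GFP level, adjusted p = 0.000166) and -1.03, -0.61, -1.03 and -1.25 on the other (mean -0.98 ± 0.09, adjusted p = 0.000204). All 12 arrays of the series were below 0 for both probes. EAChm, an enhancer of the acetyltransferase Chameau, gave -1.59, -0.91, -1.53 and -1.67 (mean -1.43 ± 0.15, adjusted p = 0.000514). CG13991 gave -0.79, -0.62, -0.94 and -0.96 (mean -0.83 ± 0.07, adjusted p = 0.000166), and its means with DichaeteWT and EnRep were -0.81 and -0.82. EAChm likewise had means of -1.28 and -1.0 there, so these falls were shared by embryos of all 3 constructs against GFP.

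In the P450 list 2 genes fell, and 3 glutathione S-transferases are given with them, chosen after their values were seen. The cytochrome P450 gene Cyp4p2 gave -1.56, -0.80, -1.59 and -1.70 (mean -1.41 ± 0.13, 0.376 of the GFP level, adjusted p = 0.000261), array 2 being nearest to 0. Cyp28d2 gave -1.16, -0.50, -1.27 and -1.43 (mean -1.09 ± 0.14, adjusted p = 0.0039), again nearest to 0 on array 2. They were 2 of 25 genes in the P450 list, 20 of which lay below 0, with a median of -0.06. Over all 87 measured P450 genes, 54 lay below 0 and no other was called. Over all probes 0.435% were called lower, the share beside which the counts of both families stand. Among 31 measured glutathione S-transferases 3 fell, with means of -0.47 for GstE14 (adjusted p = 0.0374), -0.39 for GstD5 (adjusted p = 0.0214) and -0.33 for se (adjusted p = 0.0469), which is needed for the red eye pigments, and 1 related gene, the microsomal Mgstl, rose by 0.49 on 1 of its 2 probes. Without array 4 the adjusted p was 0.0526 for Cyp28d2, 0.0573 for GstE14, 0.167 for GstD5 and 0.203 for se, and without array 3 that of GstE14 was 0.27. It was, with the replicate block, 0.0765 for GstE14, 0.0507 for GstD5 and 0.0988 for se.

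In signalling, kek1 fell. It encodes a transmembrane protein that is induced by the EGF receptor and inhibits it, and it read -0.53, -0.22, -0.84 and -0.83 (mean -0.61 ± 0.09, adjusted p = 0.00751). It was 1 of 10 measured genes of the EGF receptor pathway, whose median was -0.03 with 5 on each side of 0. Its means in DichaeteWT and EnRep embryos were -0.43 and -0.40. Its adjusted p was 0.0953 without array 4, 0.0848 without array 3 and 0.0502 without array 1.

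A further 4 falls, PolE1, PolE4, Ts and Gen, belong to no list and were chosen after their values were seen. PolE1, the catalytic subunit of DNA polymerase epsilon, gave -0.27, -0.03, -0.52 and -0.78 (mean -0.40, adjusted p = 0.0239). PolE4, a small subunit of the same enzyme, gave -0.77, -0.75, 0.07 and -0.06 (mean -0.38, adjusted p = 0.0467), so that the subunits moved in opposite dye orientations. The other measured subunit of the enzyme stood at -0.04 and was not called. Ts, thymidylate synthase, had a mean of -0.41 (adjusted p = 0.0469) and Gen, a Holliday junction resolvase, -0.44 (adjusted p = 0.0187). The DNA replication list, which does not hold these genes, had 13 of 16 measured genes below 0, 0 called and a median of -0.11. All 4 calls were lost without any 1 of the HMG-minus arrays, at adjusted p of 0.0576 to 0.218 for PolE1, 0.139 to 0.255 for PolE4, 0.0683 to 0.307 for Ts and 0.0679 to 0.167 for Gen. Those of PolE4 and Ts were also lost without any 1 of 6 arrays of the other constructs, and with the replicate block PolE1, PolE4 and Ts had adjusted p of 0.0581, 0.0988 and 0.0894.

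Other falls were single genes. Zip102B of the zinc transporter family gave -1.07, -0.58, -0.72 and -0.78 (mean -0.79, adjusted p = 0.0067). GM130 of the cis-Golgi had a mean of -0.50 (adjusted p = 0.0236), and Fnta, the alpha subunit of farnesyltransferase, -0.53 (adjusted p = 0.0105), at -0.94 and -0.92 in the Cy3 orientation and -0.13 and -0.15 in the Cy5 orientation. The kinase anchor gene Akap200 showed the opposite split, with -0.10 and -0.20 in Cy3 and -1.01 and -0.89 in Cy5 (mean -0.55, adjusted p = 0.0119). MED16 of the Mediator complex, at -0.95, -1.12, 0.06 and -0.15 (mean -0.54, adjusted p = 0.0214), did not fall on array 3, and MED6 of the same complex rose. The adaptor gene cindr fell on 1 probe, with a mean of -0.57 (adjusted p = 0.00334), while its other probe stood at 0.00. Chemosensory genes with calls were Obp57a at -0.62 (adjusted p = 0.0067), Obp59a at -0.45 (adjusted p = 0.0254) and Gr8a at -0.45 (adjusted p = 0.0349). They were 2 of 49 measured odorant-binding protein genes and 1 of 108 gustatory and ionotropic receptor genes, of which 1 other rose. With the replicate block GM130, MED16, Obp59a and Gr8a were not called (adjusted p = 0.0531, 0.0532, 0.074 and 0.0765).

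Of the genes with a call, 16 had more than 1 probe, and in 11 of these all probes lay on the same side of 0. osk, HnRNP-K and CG14897 were called on both of their probes, and pip, a sulphotransferase gene of dorsoventral patterning that has 10 probes, fell on 2 of them (-0.48 and -0.45, the latter not called with the replicate block, adjusted p = 0.0532). Disagreement was plain for Cap-H2, with 0.58 and -0.12, and CG13784, with 0.64 and 0.03. Called genes seldom lay side by side: the single pair with at most 1 gene between them was CG14453 and CG32453, which fell, with means of -0.82 and -0.77. The means of this pair were also below 0 with DichaeteWT (-0.95 and -0.75) and with EnRep (-0.91 and -0.55).

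Against the other constructs, few of these values stood apart. No probe differed between HMG-minus and DichaeteWT after adjustment (0 of 14485 in limma, with 764 at an unadjusted p below 0.05). Among probes with a symbol the smallest p was that of Obp57a, which read -0.52, -0.25, -0.70 and -1.02 with HMG-minus and 0.55, 0.29, 0.09 and -0.15 with DichaeteWT. Its difference was -0.82 with a 95% interval from -1.09 to -0.55 (adjusted p = 0.146). For BigH1 the difference from DichaeteWT had an interval of 0.25 to 1.15 and for stai of 0.41 to 1.12. For the first osk probe it was 0.22 to 1.01 and for zpg 0.15 to 1.07. These intervals are not adjusted for the number of probes. The adjusted p of the limma difference was 0.719 for BigH1 and 0.719 for that osk probe. For HnRNP-K the interval ran from -0.31 to 0.29 and for Cyp4p2 from -0.50 to 0.31. The BigH1 values stood apart from those of DichaeteWT mainly in the Cy5 orientation. A difference that missed the threshold does not show that the constructs acted alike.

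**Figure D3:**
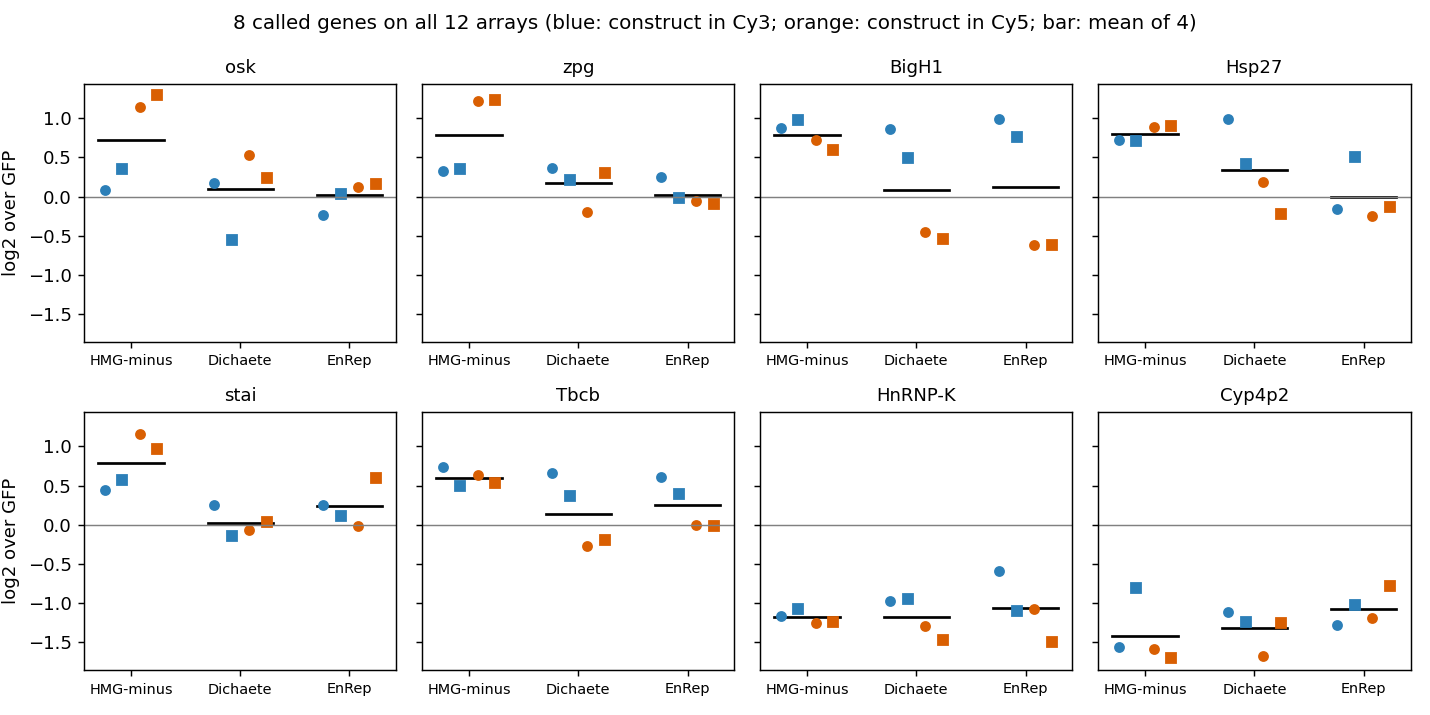
Log2 ratio over GFP (y axis) of 8 called genes on the 12 arrays, by construct; points are single arrays, blue with the construct in Cy3 and orange in Cy5, and black bars are means of 4. osk, zpg and stai have means of 0.02 to 0.24 with the other constructs, while HnRNP-K and Cyp4p2 lie below 0 on every array of all 3.

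From EnRep, HMG-minus differed at 4 of 14485 probes (0.0276%, with 992 at an unadjusted p below 0.05). At 1 of these HMG-minus was higher (0.0069% of all) and at 3 lower (0.0207%). ppk20, of the DEG/ENaC channel family, read -0.04, 0.29, -0.20 and 0.09 with HMG-minus and 2.79, 2.86, 1.90 and 1.77 with EnRep, a difference of -2.29 ± 0.18 (adjusted p = 0.000191). RFeSP, the Rieske iron-sulphur protein of respiratory complex III, read -0.29, -0.61, -0.28 and -0.05 against 2.11, 1.54, 1.60 and 1.53, a difference of -2.002 (adjusted p = 0.000267). In both genes the signal was in the EnRep embryos. Fadd, an adaptor of Imd signalling in immunity, differed by -1.05 (adjusted p = 0.0402), and a probe with no symbol differed by 0.92 (adjusted p = 0.0402). The GFP spots of RFeSP, Fadd and the unnamed probe were accepted on 0 of 4 HMG-minus arrays, so their ratios rest on dim spots. The calls of ppk20 and RFeSP also held with the replicate block, which left 2 of the 4. ppk20 and RFeSP stayed called without any single array, and the other 2 were lost without any 1 of the 4 HMG-minus arrays, with adjusted p of 0.0629 to 0.23.

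A pattern that was mostly not called stood out on the 4 arrays. On every HMG-minus array 12 probes lay below -1, of which 1, for HnRNP-K, was called. Of the others 7 were genes of cuticle proteins, which build the larval exoskeleton long after stage 9. In the other direction 2 probes lay above 1 on every HMG-minus array, and 1 was called, with no symbol (mean 1.65). The other was Jon99Ciii, at 1.29, 1.33, 1.45 and 1.51 (mean 1.39, adjusted p = 0.268). The lowest of the 12 was CG2962, at -2.09, -2.58, -3.16 and -3.22 (mean -2.76, adjusted p = 0.0708). TwdlL gave -2.41, -2.21, -2.77 and -2.70, a mean of -2.52 with an SE of 0.79 (adjusted p = 0.186). A second TwdlL probe stood at -0.22. Cpr65Ea gave -1.78, -1.99, -2.38 and -1.98, a mean of -2.03 with an SE of 0.63 (adjusted p = 0.178). Their 4 values agree closely, and the large SE comes from the other constructs: the same 12 probes were below 0 on 6 of the 8 other arrays, and 11 of them were above 0 on EnRep array 4 and on DichaeteWT array 2. In a fit to the 4 HMG-minus arrays alone, with 2 residual degrees of freedom, 248 of 14485 probes were called (96 higher, 152 lower). Among the falls were 20 of 114 measured cuticle protein genes and 6 of 24 Osiris genes. These counts are to be read beside the 152 falls among all 14485 probes. Without EnRep array 4 and DichaeteWT array 2, an alternative chosen after seeing the data, 311 were called (116 higher, 195 lower). On the 4 arrays alone TwdlL had an adjusted p of 3.21e-05 and Cpr65Ea of 0.000138. The 12 probes were picked by these same 4 values, so a small p was favoured in advance and lends no support.

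**Figure D4:**
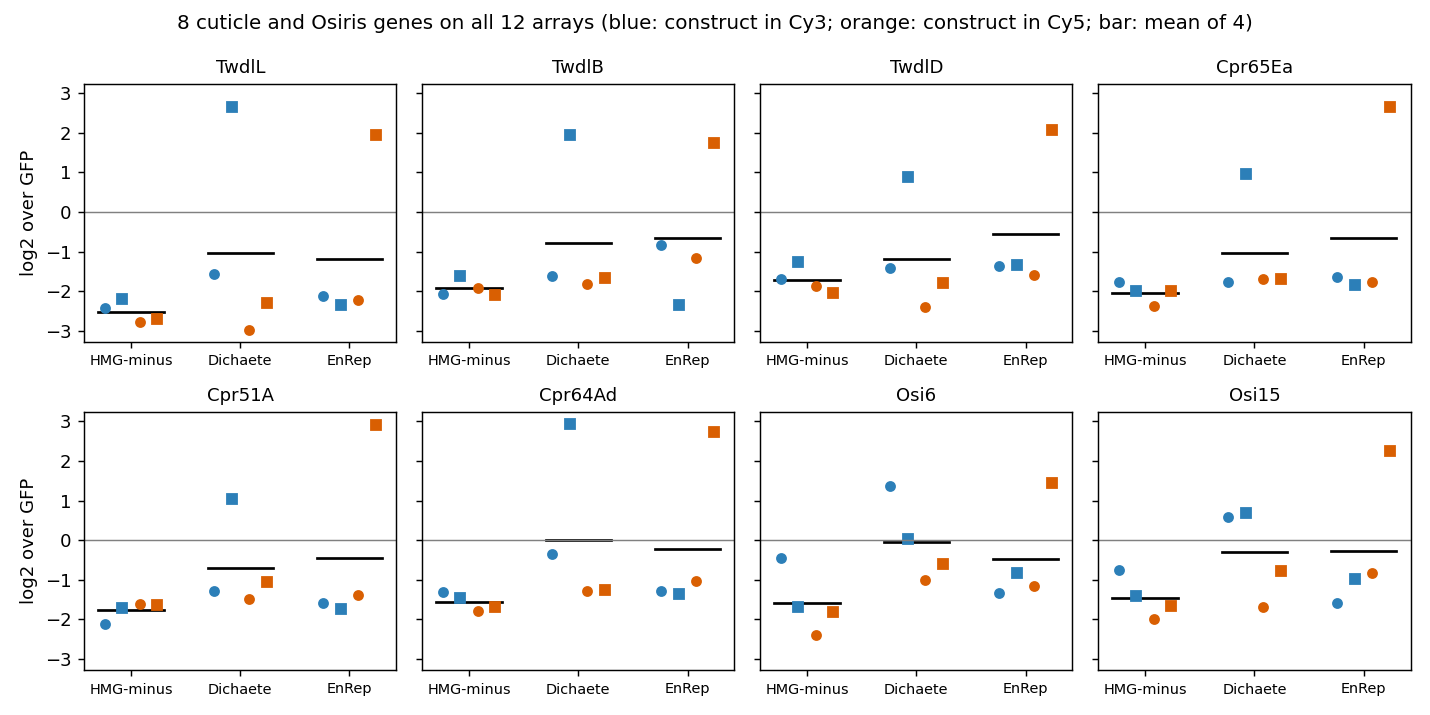
Log2 ratio over GFP (y axis) of 8 cuticle and Osiris genes on the 12 arrays, by construct; points are single arrays, blue with the construct in Cy3 and orange in Cy5, and black bars are means of 4. TwdlL lies between -2.77 and -2.21 on the HMG-minus arrays, and its DichaeteWT array 2 and EnRep array 4 stand far above the other arrays.

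Over the whole family the shift was weaker. Of 114 measured cuticle protein genes 81 lay below 0, with a median of -0.09, and of 25 Tweedle genes 23 lay below 0, with a median of -0.33. Osiris genes, which are switched on in cuticle-forming epithelia, had 16 of 24 below 0, and Osi6 gave -0.45, -1.68, -2.39 and -1.82 (mean -1.59, adjusted p = 0.132). Later muscle genes had 8 of 10 below 0 with a median of -0.20, and dorsal ectoderm genes 15 of 17 with a median of -0.15. None of these was called, and the differences of TwdlL from DichaeteWT and EnRep had intervals of -3.91 to 0.96 and -3.78 to 1.09, so no difference between constructs was resolved.

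**Figure D5:**
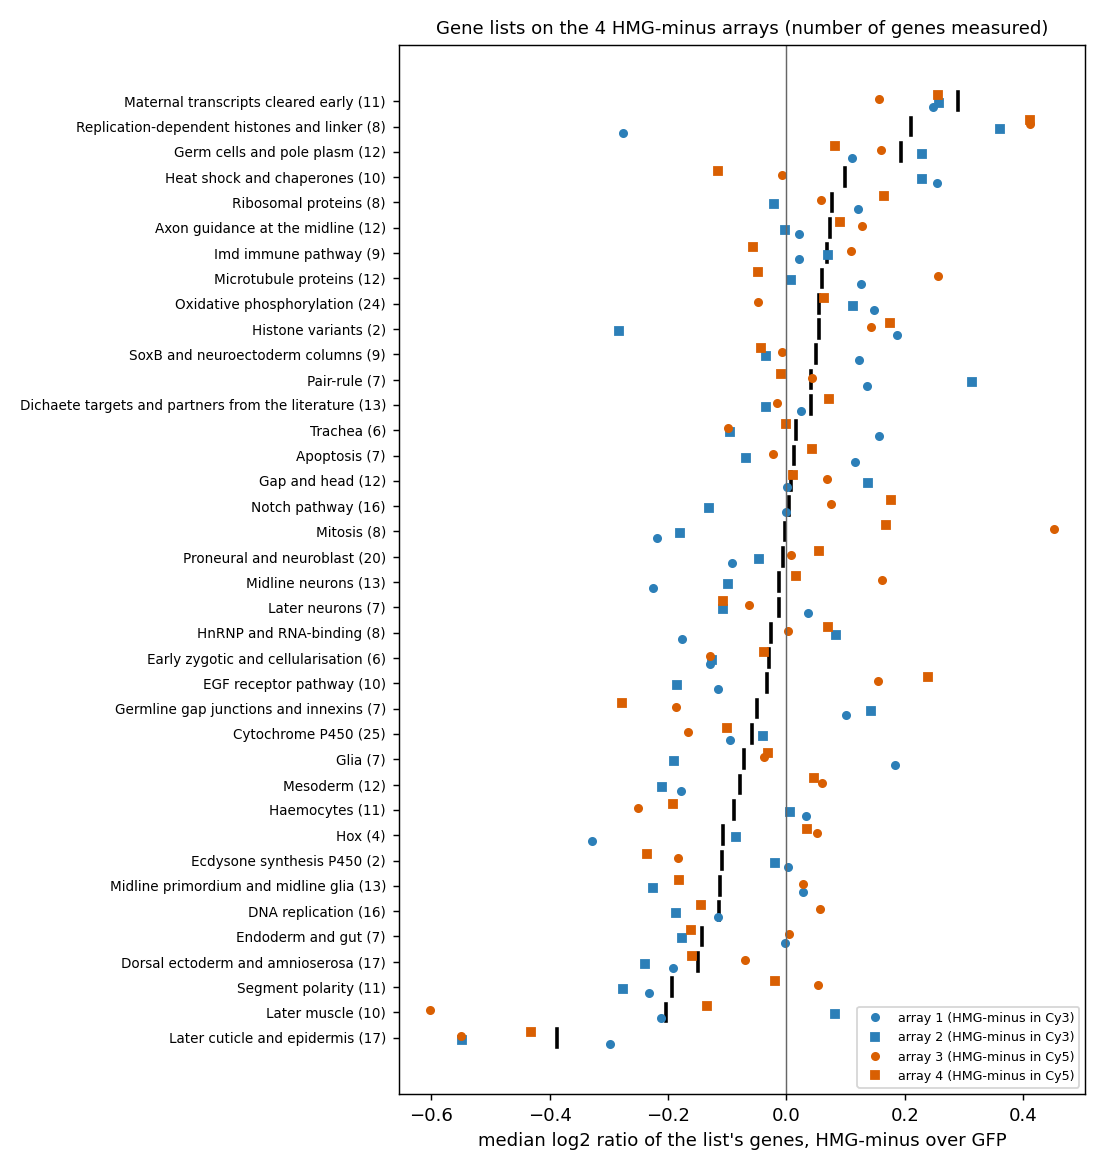
Median log2 ratio of HMG-minus over GFP (x axis) of the measured genes of 38 lists, with the number measured in brackets. Points are the medians on each array, coloured by dye, and black ticks are the medians of the genes' fitted means, which run from 0.29 for maternal transcripts to -0.39 for later cuticle genes.

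Most other lists held no call and had medians within 0.2 log2 units of 0. Segment polarity genes had 8 of 11 below 0 (median -0.19), and haemocyte genes 8 of 11 (median -0.09), where Ppn, a matrix proteoglycan-like protein, stood at -0.66 (adjusted p = 0.107). Both lists differed between the dye orientations. On arrays 1 to 4 the segment polarity medians were -0.23, -0.28, 0.05 and -0.02. Those of the haemocyte genes were 0.03, 0.01, -0.25 and -0.19. Ribosomal protein genes lay above 0 in 8 of 8 cases (median 0.08), led by RpLP0 at 0.32 (adjusted p = 0.101). Early zygotic genes, genes of the gap and head system and mesoderm genes had medians of -0.03, 0.01 and -0.08.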

How the data were processed

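Spot intensities were deposited as median foreground and local background per channel, unnormalized, quantified with Dapple per the file headers. The deposited value table holds log2 ratios made by the authors, construct over GFP. According to the submitters' processing notes limma was used, and the normalization of those ratios is not given in the sources used here. Intensities were reprocessed in R 4.3.3 with limma 3.58.1: normexp background correction (offset 50) on 18240 spots per array, global loess on the 14569 spots of the value table, ratios turned to construct over GFP, and repeated probes averaged, giving 14485 probes, of which 12574 carry 1 gene symbol, 96 several and 1815 none. The model held 3 construct means and a dye term over 12 arrays (8 residual and 4.64 prior degrees of freedom), with two-sided tests against 0, Benjamini-Hochberg adjustment over all probes and a threshold of 0.05. It was tested on simulated data. Precision is limited by the number of arrays. Same-numbered arrays of HMG-minus and another construct had deviations from their group means that correlated at 0.15 to 0.52 (8 of 8 pairs above 0.1). Since a number always goes with 1 dye orientation, arrays of the same dye and another number also reached 0.54 (7 of 8 above 0.1). After the dye term 2 of the 8 same-numbered pairs were above 0.1 (-0.47 to 0.24). The labels do not say that a number marks a shared collection. The fit with the replicate number as a block is therefore given beside each call it ends.

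The arrays, the 38 gene lists (470 genes, 360 with a named probe) and the rules were chosen with earlier results of these data known, so no list or member is independent support. Named were the 15 largest called rises and falls with the same sign on 4 arrays, D, sim, sli, comm, vvl, SoxN, ac, l(1)sc and en, called list members with up to 3 others of smallest p, genes called on several probes, the leading differences between constructs and neighbouring called genes. Other called genes, the families and the cuticle genes were chosen after their values were seen. A RefSeq gene table of another build served for names and neighbours. Alternatives changed background, normalization, probe filter, dye term, arrays, replicate block, weights and variance prior. Sequences were not used here, and 1 named gene is not reported here.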

Additional observations from a re-analysis of the deposited data

Results flagged for a closer look

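Among 104 single results and 46 list medians over the 4 HMG-minus arrays, 1 and 4 had an array far from the others by Dixon's test. Chance gives about 1 in 20 for 4 independent values of 1 normal distribution. The arrays split by dye and many of the single results were called ones, so that rate need not hold here. Cyp4p2 stood at -0.80 on array 2 and between -1.70 and -1.56 elsewhere (ratio of gap to range 0.848). The median of the maternal transcripts was 0.16 on array 3 and 0.25 to 0.26 elsewhere (0.902), and that of early zygotic genes was -0.04 on array 4 and -0.13 elsewhere (0.969). Replication-dependent histones with the linker had a median of -0.28 on array 1 and 0.36 to 0.41 elsewhere (0.926), and the histone variants, with 2 measured genes, -0.28 on array 2 and 0.14 to 0.19 elsewhere (0.907).

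The difference of HMG-minus from EnRep, tested directly in limma, was called at 4 probes: ppk20 at -2.29, RFeSP at -2.002, Fadd at -1.05 and a probe with no symbol at 0.92.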

How the results depend on the processing

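All 124 called probes kept their direction under every setting that tested them, which for many settings was fixed in advance. The fitted HMG-minus mean does not change without the dye term, on its own 4 arrays or with the replicate block. Nor does it change with the trended variance or without arrays of the other constructs. The number of calls moved. In place of 124, HMG-minus over GFP had 76 calls with median centring, 380 with print-tip loess, 23 without the dye term, 248 on its own 4 arrays, 1099 with array weights, 9 with a trended and robust variance, and 311 without EnRep array 4 and DichaeteWT array 2 together, a setting chosen after seeing the data. Apart from the replicate block, given below, the other settings gave 94 to 186, and leaving out single arrays 17 to 238. HMG-minus minus DichaeteWT, at 0, had 3 calls with print-tip loess and 2 with array weights (0 to 2 without single arrays). HMG-minus minus EnRep, at 4, had 2 without background correction, 1 without the dimmest 25% of probes, 2 without the dye term, 2 on the arrays compared, 8 with array weights, 2 with the trended variance and 1 with only spots accepted in both channels, a setting also added later (2 to 14 without single arrays). Over all 3 constructs 10 of 12 same-numbered pairs correlated above 0.1, and 5 of 12 arrays correlated best with their own number. With the replicate block in place of the dye term the counts were 62 over GFP, 0 minus DichaeteWT and 2 minus EnRep. Among 104 single results followed, those of 4 genes, small values that were not called, changed sign: ac to 0.045 without HMG-minus array 3 (-0.14 to 0.045 without single arrays), Hsp26 to -0.048 with array weights, l(1)sc to -0.0082 with median centring and -0.053 without array 2 (-0.053 to 0.11), and ppk20 to -0.019 without background correction, -0.0083 in the deposited ratios and -0.063 without array 4 (-0.063 to 0.14). The cause of these moves was not tested. Array 2 had the lowest share of accepted Cy5 spots of the HMG-minus arrays (74.6%) and the highest median Cy5 background (196).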
